A study of Mus musculus with 7 samples.

Results

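The 8 genes Lifr, Il6st, Jak1, Stat3, Socs3, Pim1, Pim3 and Bcl3 make up the route from the leukemia inhibitory factor (LIF) receptor to Stat3 and its targets. They were taken by name from the GENCODE M1 annotation of the mouse genome (mm9), and all 8 were found among the 31498 genes with at least 200 exonic bases of their own. The study asked what follows when a super-enhancer (SE), a long cluster of enhancer elements, is removed from downstream of Sox2 in embryonic stem cells (ESCs). RNA was sequenced from 4 samples of F123, an ESC line of the F1 hybrid between Mus musculus castaneus (CAST) and 129 mice: wild type cells and CRISPR/Cas9 deletion clones. In CAST+/129- the SE was missing from the 129 copy, in CAST-/129+ from the CAST copy and in CAST-/129- from both copies. H3K4me3, a histone mark of active promoters, was mapped by ChIP-seq in F123 cells, and H3K27ac, a mark of active enhancers and promoters, in F123 cells and in J1, an ESC line of 129 background. The ChIP-seq samples carried no deletion in their labels, so they describe cells with the SE.

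Each deletion genotype was 1 clone with 1 library. After transfection the clones grew on feeder cells, and their last passages before RNA extraction were feeder-free, on gelatin. With 1 library per condition there is no replicate error and no test. The values below are distinct alignments (each start, end and strand counted 1 time) with exact 95% Poisson intervals, and ratios of 2 libraries with exact 95% binomial intervals. These intervals cover counting error only. Mates of a read pair were not joined but counted singly, so the intervals may be too narrow. Levels are in FPKM, which divides by exonic length and by library size. Genes held 24848422 alignments in wild type and 12458881, 6058939 and 5831199 in the CAST+/129-, CAST-/129+ and CAST-/129- clones. Sox2 itself stood at 46.9%, 41.8% and 4.23% of its wild type level of 174.7 FPKM in the CAST+/129-, CAST-/129+ and CAST-/129- libraries. All 8 ESC markers examined were above 1 FPKM in every RNA library, and their summed level was 1528, 1483, 1401 and 1080 FPKM in wild type, CAST+/129-, CAST-/129+ and CAST-/129-. Dppa5a, at 461.3 FPKM or more, held the most of that sum, and 3 of the 8, Nanog, Zfp42 and Esrrb, were more than 3-fold lower in CAST-/129-, at 29.9%, 28.2% and 23.7% of wild type. With repeated alignments counted too, Dppa5a had 56081 of 64809147 on genes in wild type and 4973 of 8562780 in CAST-/129-. That was a smaller share in CAST-/129-, although its level from distinct alignments was 104% of wild type. The 12 fibroblast and feeder markers summed to 25.8 FPKM in wild type, where Lum was at 0 counts, and to 96.7, 93.3 and 498.7 FPKM in the deletion clones in the same order, while Thy1, the highest of them in wild type at 11.4 FPKM, was at 49.8%, 54.9% and 242% of that level and Col1a1 went from 3.48 to 174.4 FPKM in CAST-/129-. The 9 trophectoderm markers summed to 29.6, 374, 610 and 571 FPKM, of which Krt8 and Krt18 made up 278.9 and 231.4 FPKM in CAST-/129-, whereas Eomes, Elf5, Gata3, Tfap2c and Hand1 were lower there than in both monoallelic clones. The 8 primitive endoderm markers summed to 200 FPKM in wild type, mainly Lama1 (80.3) and Gata6 (42.9), and to 48.8, 84.7 and 53.3 FPKM in the clones, although Foxa2 went from 1.36 FPKM in wild type to 9.05 and 11.4 FPKM in CAST-/129+ and CAST-/129-. In bulk RNA of this kind, fewer cells of a type and less RNA per cell cannot be told apart.

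LIF is the cytokine that keeps mouse ESCs undifferentiated in culture. It binds Lifr, which pairs with Il6st (gp130), the signalling chain shared by the interleukin 6 cytokine family. The kinase Jak1, held on the receptor tails, then phosphorylates Stat3, which enters the nucleus and switches on its targets. Among these targets are Socs3, which binds the receptor and Janus kinases and shuts the signal down, the serine/threonine kinases Pim1 and Pim3, and Bcl3, a nuclear protein of the I-kappa-B family.

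All 8 genes were expressed in wild type cells, between 16.2 FPKM for Stat3 and 56.8 FPKM for Pim1, and each level was above that of 82.8% to 95.8% of all genes. In the CAST-/129- clone the receptor gene Lifr and the targets Socs3 and Bcl3 were each more than 4-fold lower than in wild type, Pim3 was 2.39-fold lower, and Il6st, Jak1, Stat3 and Pim1 kept between 70.1% and 99.2% of their wild type levels. In the clones with 1 intact SE, the 8 genes lay between 34.9% and 91.0% of wild type. The median over the 8 genes was 60.6% in CAST+/129-, 56.0% in CAST-/129+ and 56.0% in CAST-/129-, beside medians of 96.4%, 93.3% and 92.2% over the 13826 genes with a mean of at least 1 FPKM.

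**Figure D1:**
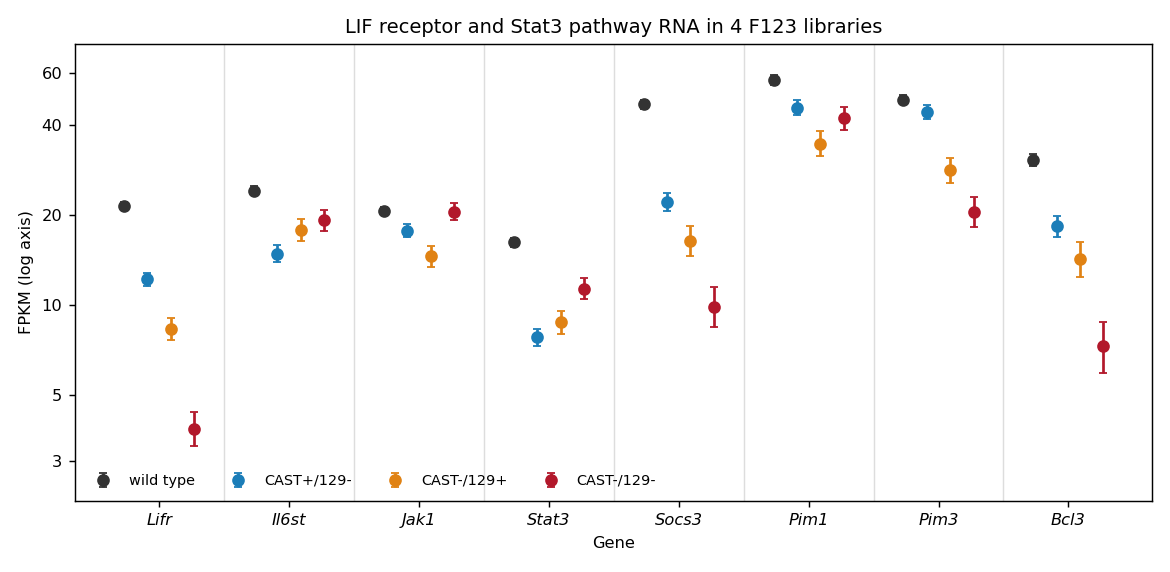
FPKM (log axis) of the 8 genes in the wild type, CAST+/129-, CAST-/129+ and CAST-/129- libraries, 1 library each; bars are exact 95% Poisson intervals of counting error. Lifr, Socs3, Pim3 and Bcl3 step down through the 4 libraries to 3.83, 9.85, 20.5 and 7.25 FPKM in CAST-/129-, whereas Il6st, Jak1 and Stat3 are higher in CAST-/129- than in CAST+/129-.

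Lifr, the ligand-binding chain of the receptor, lies on chr15:7079559-7147489 on the + strand and had 21.5 FPKM in wild type from 5524 alignments. It measured 12.2 FPKM in CAST+/129- (1566 alignments), 8.29 FPKM in CAST-/129+ (519) and 3.83 FPKM in CAST-/129- (231). No intervals of these 4 levels overlapped, so the order wild type, CAST+/129-, CAST-/129+, CAST-/129- exceeded counting error at every step. The CAST-/129- level was 17.8% of wild type (15.6 to 20.3), or 5.61-fold lower, and Lifr was the member lowest relative to wild type in that clone, although its interval overlapped those of Socs3 and Bcl3. It was also 31.5% (27.3 to 36.2) of the CAST+/129- level and 46.2% (39.4 to 54.1) of the CAST-/129+ level. When the exonic bases were divided at their middle, the 5′ part stood at 62.8%, 43.0% and 21.9% of wild type in CAST+/129-, CAST-/129+ and CAST-/129- and the 3′ part at 49.4%, 33.4% and 13.1%. The 3′ part was thus the lower of the 2 in each clone, with intervals that did not overlap in CAST+/129- or in CAST-/129- (18.5 to 25.8 and 10.3 to 16.4). This was not particular to Lifr: in CAST+/129- the 3′ part was also the lower for Il6st (53.2% against 69.3%) and Stat3 (43.2% against 53.2%), and in CAST-/129+ it was the higher for Jak1 (77.7% against 55.7%), each without overlap of the intervals.

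Il6st, the shared signalling chain, is annotated on chr13:113265216-113297068 on the + strand. Its level was 24.2 FPKM in wild type, and the CAST+/129-, CAST-/129+ and CAST-/129- clones had 14.8, 17.9 and 19.2 FPKM, which were 61.5% (57.1 to 66.1), 74.0% (67.5 to 81.0) and 79.6% (72.8 to 87.0) of wild type. It was therefore lower than wild type in every clone but lowest in CAST+/129-, and the levels of the CAST-/129+ and CAST-/129- clones did not differ beyond counting error. The 2 receptor chains thus separated: the FPKM of Lifr divided by that of Il6st was 0.89 in wild type and 0.82, 0.46 and 0.20 in the clones in the same order. RefSeq places the start of Il6st 10938 bases upstream of the GENCODE M1 gene, and the stretch between the starts held 128, 25, 23 and 13 sense alignments in wild type, CAST+/129-, CAST-/129+ and CAST-/129-. Relative to wild type these were 39.0% (24.3 to 60.1), 73.7% (45.1 to 115) and 43.3% (22.4 to 76.7), from counts too small to order the clones.

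Jak1, the receptor-bound kinase (chr4:100824972-100937887, - strand), had 20.7 FPKM in wild type and 17.7, 14.5 and 20.5 FPKM in the CAST+/129-, CAST-/129+ and CAST-/129- clones. The CAST-/129- level was 99.2% of wild type (92.0 to 106.9), and Jak1 was the 1 member whose interval held the wild type level in that clone. The monoallelic clones were lower, at 85.6% (80.7 to 90.8) and 70.3% (64.6 to 76.5).

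Stat3, the transcription factor of the pathway (chr11:100746412-100800854, - strand), had 16.2 FPKM in wild type and 7.78, 8.75 and 11.3 FPKM in the CAST+/129-, CAST-/129+ and CAST-/129- clones. It was lower than wild type in every clone, at 48.1% (44.7 to 51.7), 54.1% (49.2 to 59.3) and 70.1% (64.3 to 76.3), but the clone without the SE on either allele had the highest of the 3 levels. Its CAST-/129- level was 146% (131 to 161) of that in CAST+/129- and 130% (115 to 146) of that in CAST-/129+. Stat3 was the lowest member in wild type and in CAST+/129-, whereas Lifr held that place in CAST-/129+, where the intervals of the 2 genes overlapped, and in CAST-/129-.

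Socs3, the feedback inhibitor (chr11:117827393-117831361, - strand), had 47.0 FPKM in wild type from 3376 alignments. It measured 22.1 FPKM in CAST+/129- (797 alignments), 16.4 in CAST-/129+ (287) and 9.85 in CAST-/129- (166), with no overlap between the intervals. These levels were 47.1% (43.5 to 50.9), 34.9% (30.8 to 39.3) and 21.0% (17.8 to 24.5) of wild type, the last being 4.77-fold lower. Socs3 was the lowest member relative to wild type in both monoallelic clones, with intervals that overlapped those of Stat3 in CAST+/129- and of Lifr in CAST-/129+. The 5′ and 3′ parts of its exonic bases stood alike in CAST-/129-, at 21.7% (16.7 to 27.7) and 20.5% (16.6 to 25.1).

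Bcl3 (chr7:20393811-20408119, - strand), which acts on NF-kappa-B dimers in the nucleus, followed the order of Lifr and Socs3. It had 30.7 FPKM in wild type and 18.3, 14.2 and 7.25 FPKM in the CAST+/129-, CAST-/129+ and CAST-/129- clones, the last from 105 alignments. These were 59.8% (54.4 to 65.7), 46.3% (40 to 53.4) and 23.6% (19.2 to 28.8) of wild type. Its 5′ and 3′ parts in CAST-/129-, at 16.3% (10.3 to 24.7) and 27% (21.3 to 33.8), overlapped in their intervals.

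The Pim kinases, which promote survival and growth, were less even. Pim3 (chr15:88692616-88696150, + strand) had 48.8 FPKM in wild type and 44.5, 28.3 and 20.5 FPKM in the clones in that order, or 91.0% (85.3 to 97.1), 57.9% (52.1 to 64.2) and 41.9% (37.0 to 47.3) of wild type, and the first of these became 107.4% when each 5′ position was counted 1 time. Pim1 (chr17:29627757-29632390, + strand) had 56.8, 45.9, 34.7 and 42.2 FPKM in the same order and was the most abundant member in all 4 libraries, level with Pim3 within counting error in CAST+/129-. Its CAST-/129- level was 74.3% (67.3 to 81.8) of wild type and did not differ from CAST+/129- beyond counting error. With each 5′ position counted 1 time, Pim1 stood at 98.2%, 79.8% and 96.8% of wild type in CAST+/129-, CAST-/129+ and CAST-/129-. That count can hold only about 1 alignment per exonic base. In wild type, the deepest library, Pim1 had 2782 alignments on 1972 bases and Pim3 2938 on 2421. For such genes it can understate a difference from wild type, so it does not show that they were unchanged. Pim2, the remaining member of the family and 1 of the wider pathway genes described below, moved the opposite way, from 2.66 FPKM in wild type to 13.9, 30.6 and 53.0 FPKM in CAST+/129-, CAST-/129+ and CAST-/129-. The 3 Pim genes together summed to 108.3, 104.3, 93.7 and 115.7 FPKM, while the share of Pim2 in that sum went from 2.46% in wild type to 45.8% in CAST-/129-.

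**Figure D2:**
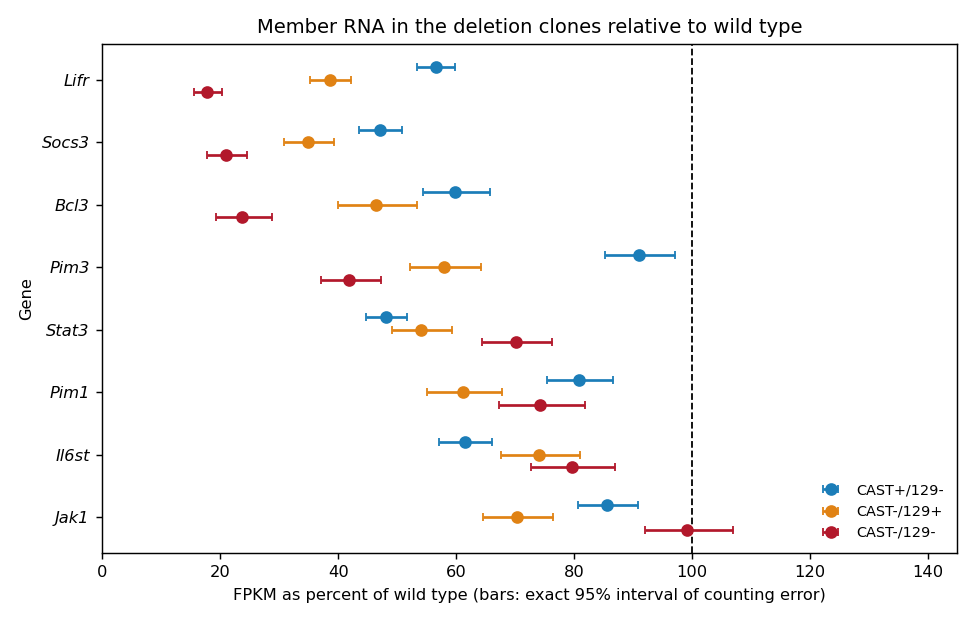
Level of each gene in the 3 deletion clones as a percent of its wild type FPKM, ordered by the value in CAST-/129-; bars are exact 95% intervals of counting error and the dashed line marks 100%. Lifr, Socs3, Bcl3 and Pim3 are lowest in CAST-/129-, at 17.8% to 41.9%, and Stat3 and Il6st are lowest in CAST+/129-.

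The threshold of the study was a 3-fold difference after 4 was added to each FPKM, which makes small levels count less. By it 0 of 8 members were lower in CAST+/129-, 0 of 8 in CAST-/129+ and 3 of 8 in CAST-/129-, beside 0.305%, 0.33% and 0.511% of all 31498 genes. The 4521 genes with at least 20 FPKM in wild type, among them 7 of the 8 members (not Stat3), are a background closer in level, and of these 1.28%, 1.5% and 2.48% were lower by the same threshold. The log2 ratios of the 3 members past it in CAST-/129- were -1.88 for Socs3, -1.70 for Lifr and -1.62 for Bcl3, and the nearest member short of it was Pim3 with -1.11. No member was higher by 3-fold in any clone, a direction taken by 0.321%, 0.473% and 0.819% of all genes. The interval of the ratio lay wholly below wild type for 8, 8 and 7 of the 8 members, a direction found for 45.1%, 45.4% and 46.3% of the 12404 genes with at least 100 wild type counts. The members had 1894 to 5524 wild type counts, and genes nearer 100 have wider intervals, so these shares are not matched in depth.

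The 3 calls lie close to the threshold and depend on how libraries were scaled. Only Socs3 passed when all distinct alignments set the library size or when reads were counted before collapsing, only Lifr passed when each 5′ position was counted 1 time, and Bcl3 missed the threshold with median-of-ratios scaling, although their CAST-/129- levels stayed between 17.9% and 29.5% of wild type under all 6 scalings and countings tried. The 3 contrasts share the wild type library, so an unusual level there would move all of them. The fibroblast and feeder markers were highest in the clone in which Lifr, Socs3 and Bcl3 were lowest, and their part in these levels was not tested.

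The order of levels among the clones differed between members. Lifr, Socs3, Pim3 and Bcl3 were lower in CAST-/129- than in both monoallelic clones and lower in CAST-/129+ than in CAST+/129-, and each of these ratios had an interval wholly below 100%. These 4 of 8 members stand beside 6.61% of the genes with at least 100 wild type counts and 12.3% of those with at least 20 FPKM in wild type. Stat3 and Jak1 were higher in CAST-/129- than in both monoallelic clones, again with intervals that did not hold 100%, and these 2 of 8 stand beside 15.9% and 9.82% of the same sets of genes, the latter without Stat3. Both orders were read from the levels of these members themselves, and the sets of genes are not matched to them in depth. The shares beside them are therefore description only. Pim1 was higher in CAST-/129- than in CAST-/129+, at 121% (106 to 139), and Il6st higher than in CAST+/129-, at 130% (117 to 144), but each overlapped the other monoallelic clone. CAST-/129- was also the clone with the highest fibroblast and feeder marker sum. The part of such cells in the levels of Stat3, Jak1, Pim1 and Il6st was not tested. None of the 8 genes lies on the chromosome of Sox2. Of the 19 or 20 nearest expressed neighbours, 0 had a log2 ratio in CAST-/129- as low as that of Lifr, Socs3, Pim3 or Bcl3, and the median ratios of these neighbours were -0.19, -0.14, 0.04 and 0.08. For Il6st, Jak1, Stat3 and Pim1, 9, 13, 2 and 3 neighbours were lower. Only 0.511% of all genes were lower by 3-fold in CAST-/129-, so a count of 0 was likely for Lifr, Socs3 and Bcl3 anywhere.

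Among the 9528 genes with a mean of at least 5 FPKM, likeness was measured as the Euclidean distance over the 3 log2 ratios, which share the wild type library. Those nearest to Lifr were Tcf15, Bcl3 and Psma8, at distances of 0.14, 0.15 and 0.17, and Tcf15, a basic helix-loop-helix transcription factor, had 45.8, 27.4, 21.1 and 9.97 FPKM in wild type, CAST+/129-, CAST-/129+ and CAST-/129-. Nearest to Socs3 were Ckmt1, Pcsk6 and Tex14 (0.11, 0.11 and 0.13), and nearest to Bcl3 were Ak7, Lifr and Gm13238 (0.15 each). Lifr and Bcl3 were thus in each other's nearest 3 genes in 4 libraries. Counting error was not carried into these distances. Bcl3 in CAST-/129- had an interval of 5.93 to 8.77 FPKM. Its log2 ratio there was -1.38 with reads before collapsing and -1.69 when libraries were thinned to the lowest depth. The ranks of such near genes are therefore not resolved.

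The chromatin at the starts of these genes was read from the F123 and J1 ChIP-seq libraries, as the count of 5′ ends within 2 kb of the start over that expected from the mean density of the chromosome. No input library was used here, and the depth was 7108751 alignments for H3K4me3, 1576875 for H3K27ac in F123 and 7743500 for H3K27ac in J1, so levels were not compared between lines. At the annotated start, 7 of 8 members had more than 5-fold H3K4me3, as had 35.4% of all genes and 79.2% of genes with at least 20 FPKM. For H3K27ac, 6 of 8 members were above 5-fold in F123 and in J1, beside 22.2% and 17.7% of all genes and 62.5% and 50.9% of genes with at least 20 FPKM.

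**Figure D3:**
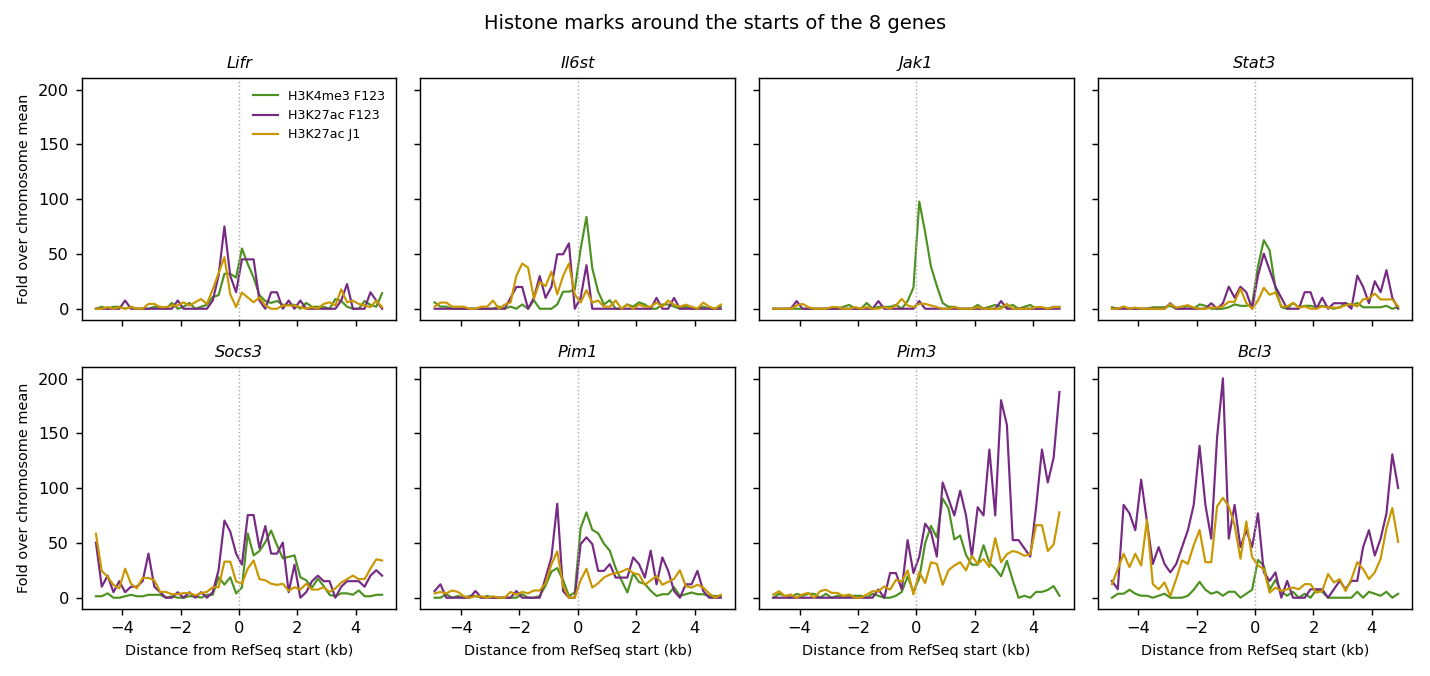
Histone marks in 200 bp bins within 5 kb of the first RefSeq start of each gene (distance in kb, positive in the direction of transcription), as fold over the chromosome mean, for H3K4me3 in F123 and H3K27ac in F123 and J1. Jak1 has H3K4me3 of up to 97.9-fold with H3K27ac of at most 8.95-fold, and Il6st carries both marks at the RefSeq start.

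Il6st appeared bare at its GENCODE M1 start, with 1.27-fold H3K4me3 (0.67 to 2.17) and 0.99-fold H3K27ac in F123 (0.12 to 3.59). At the RefSeq start, a choice made after the data were seen, it had 13.6-fold H3K4me3 (11.5 to 16.1), 14.9-fold H3K27ac in F123 (10.1 to 21.3) and 15.8-fold in J1 (13.5 to 18.3). The marks therefore lay at the upstream start, whose 250 preceding bases are shown because this is where the promoter chromatin of Il6st was measured (RefSeq start matched in NCBIM37, the assembly of mm9; chr13:113254028-113254277, + strand):
Il6st: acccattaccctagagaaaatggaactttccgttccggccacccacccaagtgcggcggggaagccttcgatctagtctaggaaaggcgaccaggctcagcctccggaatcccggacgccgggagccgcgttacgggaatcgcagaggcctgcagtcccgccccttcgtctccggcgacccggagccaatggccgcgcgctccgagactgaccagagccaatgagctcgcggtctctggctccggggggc

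Jak1 had H3K4me3 with little H3K27ac. It had 13.8-fold H3K4me3 (11.7 to 16.1) at its start, above 89.3% of genes, but only 2 H3K27ac alignments in F123 (0.70-fold, 0.084 to 2.52) and 23 in J1 (1.72-fold, 1.09 to 2.57). None of the 100 bins of 1 kb within 50 kb of the Jak1 start was above 5-fold for H3K27ac in F123 or in J1, whereas the median gene with at least 20 FPKM had 9 such bins in F123 and 7 in J1. Lifr had all the marks at its start, with 14.7-fold H3K4me3 (12.6 to 17.1), 16.9-fold H3K27ac in F123 (12.3 to 22.6) and 9.64-fold in J1 (8.06 to 11.4). The 250 bases before the GENCODE M1 starts of these 2 genes are printed (NCBIM37, chr4:100937888-100938137, - strand, and chr15:7079309-7079558, + strand). Jak1 was the member with the least promoter H3K27ac at its RefSeq start, and Lifr the member with the lowest CAST-/129- level. The printed stretches were 56.0% and 82.8% G or C, and those before the RefSeq starts 61.2% and 82.4%, beside a median of 58.4% for genes with at least 20 FPKM:
Jak1: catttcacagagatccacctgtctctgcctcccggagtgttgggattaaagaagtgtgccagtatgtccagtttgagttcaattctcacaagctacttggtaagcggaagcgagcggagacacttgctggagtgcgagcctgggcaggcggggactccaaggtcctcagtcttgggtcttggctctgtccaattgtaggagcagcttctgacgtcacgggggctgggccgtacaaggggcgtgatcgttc
Lifr: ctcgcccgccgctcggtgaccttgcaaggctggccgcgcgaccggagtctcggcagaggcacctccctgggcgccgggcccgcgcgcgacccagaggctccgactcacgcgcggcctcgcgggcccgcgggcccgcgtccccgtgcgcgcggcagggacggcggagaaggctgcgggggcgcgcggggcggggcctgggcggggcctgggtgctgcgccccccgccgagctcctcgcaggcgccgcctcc

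Bcl3 had the most H3K27ac at its start of the 8 members, with 53.9-fold in F123 (45.3 to 63.6) and 36.2-fold in J1 (33.0 to 39.7), although in F123 its interval overlapped that of Pim3. These values were above those of 99.2% and 99.7% of all gene starts. Its H3K4me3 of 7.90-fold (6.33 to 9.75) was below the median of 11.7-fold of genes with at least 20 FPKM. Pim3 had 28.9-fold H3K4me3 (25.9 to 32.2) and 40.9-fold (33.6 to 49.4) and 17.4-fold (15.2 to 19.7) H3K27ac in F123 and J1. Pim1 had 26.0-fold H3K4me3 and 24.2-fold and 16.0-fold H3K27ac, and Socs3 17.3-fold, 29.4-fold and 13.0-fold. At its RefSeq start Socs3 had 24.1-fold H3K4me3 (21.7 to 26.7) and 33.5-fold and 14.0-fold H3K27ac. Stat3 was lower, with 10.4-fold H3K4me3 (8.83 to 12.2) and 12.6-fold (9.34 to 16.6) and 5.36-fold (4.37 to 6.52) H3K27ac.

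H3K27ac also lay beyond the promoters of most members, to a different extent in each. Socs3 had 48 bins of 1 kb above 5-fold among the 100 within 50 kb in F123 and 40 in J1, more than 98.4% and 97.1% of genes with at least 20 FPKM, and its highest F123 bin, at 98.6-fold (80.1 to 120), lay 37.5 kb upstream. Its highest J1 bin, at 59.3-fold (52.5 to 66.7), lay elsewhere, 6500 bases upstream. Lifr had 21 such bins in each line, 17 of them more than 5 kb from the start, and the highest lay 13.5 kb upstream in both lines, at 66.1-fold (48.1 to 88.8) in F123 and 53.3-fold (45.8 to 61.6) in J1. The highest bins of Pim3 and Bcl3 were 5.5 kb downstream of the start in both lines, at 137-fold and 149-fold in F123, and that of Pim1 was 39.5 kb upstream. Stat3, with 7 bins above 5-fold in F123 and 6 in J1, was below the medians of 9 and 7 bins given above, and Il6st had 13 and 8. Nearby genes share these windows, ChIP-seq of the deletion clones was not analysed here, and whether any of these regions act on the members was not tested.

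**Figure D4:**
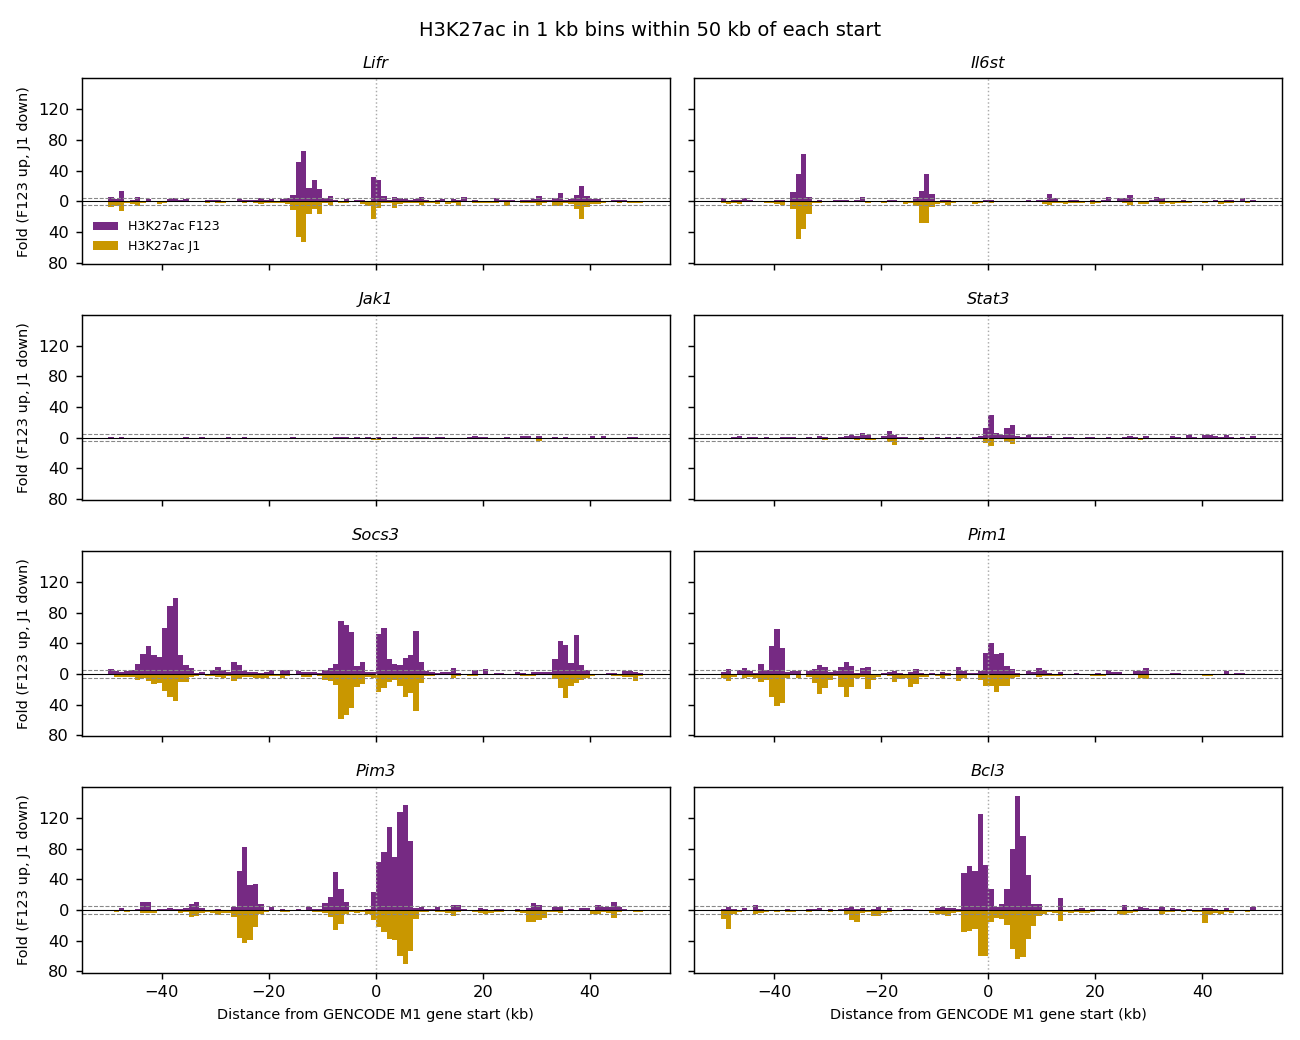
H3K27ac in 1 kb bins within 50 kb of the GENCODE M1 start of each gene (distance in kb, positive in the direction of transcription), as fold over the chromosome mean, with F123 upward and J1 downward and dashed lines at 5-fold. Socs3 has 48 F123 bins above 5-fold and Jak1 has 0.

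Stat dimers bind the palindrome TTCNNNGAA, and TTCCNGGAA, a narrower form contained in it, is the form often given for Stat3. Both read the same on either strand. In the 250 bases before the annotated start, TTCNNNGAA was found in 6.99% of all genes and in 0 of 8 members, and before the RefSeq start in 1 of 8, Socs3. TTCCNGGAA was found in 0.898% of all genes and in no member in that window, and within 2 kb on each side in 1 of 8 members, Socs3, and in 11.6% of all genes. Within 2 kb on each side of the annotated start, 5 of 8 members held TTCNNNGAA, as did 72.9% of all genes, so neither letter match set the members apart. Socs3 is shown because it held both forms. The first line gives the 250 bases before its RefSeq start (NCBIM37, chr11:117830681-117830930, - strand) with TTCTTAGAA in capitals, 154 bases before that start, and the second a shorter stretch around TTCCAGGAA in capitals, which lies at chr11:117830553-117830561, 119 bases after the RefSeq start and 61 bases before the start of the coding transcript Socs3-001 in GENCODE M1:
Socs3 promoter: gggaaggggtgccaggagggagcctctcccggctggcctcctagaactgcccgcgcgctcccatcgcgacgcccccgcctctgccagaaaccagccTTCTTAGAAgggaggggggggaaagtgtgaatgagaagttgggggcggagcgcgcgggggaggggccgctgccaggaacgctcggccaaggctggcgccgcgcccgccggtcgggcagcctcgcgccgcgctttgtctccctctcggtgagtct
Socs3 stretch: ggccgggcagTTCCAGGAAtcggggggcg

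The other genes of the pathway reported here number 49, all of which were matched, Tfcp2l1 under its older symbol Tcfcp2l1. Of these 49, 2 were lower and 0 higher by 3-fold in CAST+/129-, 3 lower and 1 higher in CAST-/129+, and 2 lower and 2 higher in CAST-/129-, beside 0.305% and 0.321%, 0.33% and 0.473%, and 0.511% and 0.819% of all genes. None of the 7 ligand genes was past 3-fold, and 6 of the 7 had under 100 wild type counts. Cntf, the ligand gene with the highest wild type level (4.10 FPKM), had 23, 4, 1 and 1 alignments on only 226 exonic bases, too few to order the libraries. Its wild type interval of 2.60 to 6.15 FPKM overlapped that of Lif (2.17 to 2.77). Lif itself, chosen after its values were seen, had 2.45, 4.04, 2.09 and 3.35 FPKM.

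None of the 4 other receptor genes passed 3-fold. Cntfr, which binds ciliary neurotrophic factor and pairs with Lifr and Il6st, had 15.8 FPKM in wild type and 4.53, 3.50 and 7.83 FPKM in the clones, or 28.7% (24.1 to 34.0), 22.2% (16.8 to 28.8) and 49.6% (40.9 to 59.7). Osmr, the oncostatin M receptor that also pairs with Il6st and was likewise chosen after its values were seen, had 4 alignments in wild type and 67, 19 and 157 in the clones, or 0.033, 1.11, 0.65 and 5.57 FPKM. Osmr was thus highest in the clone in which Lifr was lowest and the fibroblast and feeder markers were highest. Of the 3 other Janus kinases, 0 passed 3-fold, and Tyk2 had 9.56 FPKM in wild type and between 6.44 and 6.66 FPKM in the clones. Jak3 and Jak2 are named after their values were seen. Jak3 went from 7.83 FPKM in wild type to 7.42, 1.97 and 2.35 FPKM in the clones, which without the added 4 is 3.98-fold and 3.33-fold lower in CAST-/129+ and CAST-/129-. Jak2 had 3.94 FPKM in wild type and 4.23, 7.42 and 6.85 FPKM in the clones, the last pair being 188% (159.9 to 220.5) and 174% (146.7 to 205.1) of wild type.

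None of the 6 other STAT genes passed 3-fold either, but in CAST+/129-, CAST-/129+ and CAST-/129- the ratios of 5, 6 and 5 of them had intervals below wild type, beside 45.1%, 45.4% and 46.3% of genes with at least 100 wild type counts, and their median levels were 40.1%, 46.0% and 46.4%. Stat2, which carries interferon signals, had 15.3 FPKM in wild type and 6.27, 7.98 and 5.88 FPKM in the clones. With Stat3 included, the 7 STAT genes summed to 60.1, 29.5, 31.1 and 37.1 FPKM in wild type, CAST+/129-, CAST-/129+ and CAST-/129-. Of the 14 other inhibitors, 0 passed 3-fold, and 6, 6 and 8 lay below wild type by their intervals against 4, 5 and 4 above, a direction of 32.3%, 28.3% and 28.3% of the genes with at least 100 wild type counts. The most abundant of them, Pias2, which attaches SUMO to proteins, had 46.2 FPKM in wild type and 33.2, 35.8 and 30.4 FPKM in the clones.

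The 15 further targets held all the differences past 3-fold among these 49 genes, in both directions. Klf4, a pluripotency factor induced by Stat3, had 120.5 FPKM in wild type and 19.3, 13.9 and 8.29 FPKM in the clones, and Tfcp2l1, another transcription factor of self-renewal, 86.7 and then 20.6, 13.8 and 13.3 FPKM. Both were lower by 3-fold in all 3 clones, including the monoallelic clones where no member passed. In CAST+/129- the calls of Klf4 and Tfcp2l1 did not both hold when each 5′ position was counted 1 time. Egr1, an immediate early gene, had 14.0 FPKM in wild type and 2.59, 1.22 and 2.99 FPKM in the clones and passed 3-fold in CAST-/129+. Klf5, the most abundant target at 188 FPKM, stood at 47.3% (45.0 to 49.7), 38.8% (36 to 41.8) and 35.5% (32.7 to 38.4) and did not pass. That depended on the counting. With reads before collapsing, Klf5 had 21207 of 64809147 on genes in wild type, 1003 of 9900604 in CAST-/129+ and 813 of 8562780 in CAST-/129-. By these reads it was lower relative to wild type and passed 3-fold in both of these clones. Pim2 was higher by 3-fold in CAST-/129+ and CAST-/129-. Ccnd1, which encodes cyclin D1 of the cell cycle, had 22.1, 21.7, 25.6 and 75.7 FPKM in the 4 libraries and was higher by 3-fold in CAST-/129-, the clone with the highest fibroblast and feeder marker sum, whose part in this level was not tested. This last call was lost when both strands were counted and when each 5′ position was counted 1 time. Of the 13 targets with at least 100 wild type counts, 6, 6 and 5 lay below wild type by their intervals in CAST+/129-, CAST-/129+ and CAST-/129- and 6, 6 and 7 above, beside 45.1%, 45.4% and 46.3% below and 32.3%, 28.3% and 28.3% above among all genes with such counts.

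**Figure D5:**
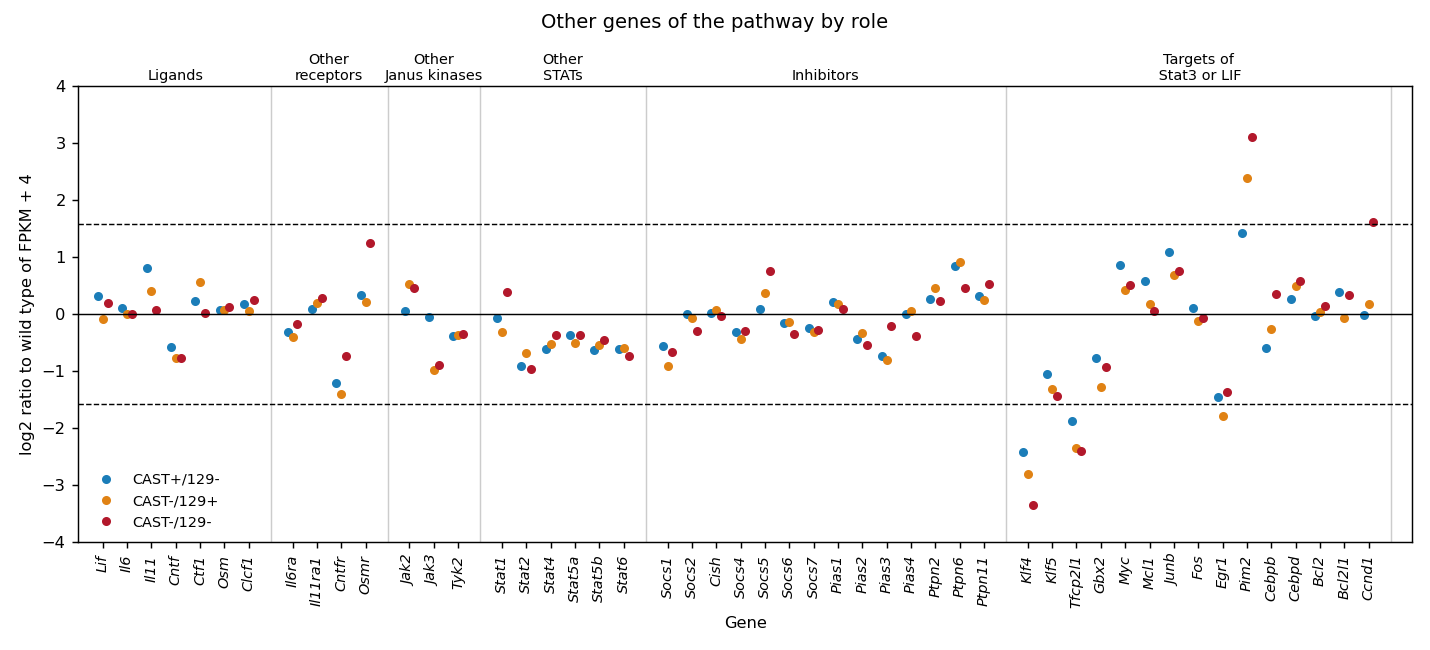
Log2 ratio to wild type of FPKM + 4 for the 49 other pathway genes by role in the 3 deletion clones; dashed lines mark 3-fold in each direction. Klf4 and Tfcp2l1 lie below the lower line in all 3 clones, Pim2 lies above the upper line in CAST-/129+ and CAST-/129-, and the 6 other STAT genes lie between the lines.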

How the data were processed

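RNA-seq (4 libraries, polyA-selected and strand-specific) and ChIP-seq (3 libraries) were deposited as lists of distinct alignments with a column read here as the count of equal alignments. Per the labels and the study's methods the authors mapped reads to mm9, with Novoalign and USeq for RNA, and Bowtie is named for ChIP. The deposited count column was used only as an alternative. From these files FPKM was computed over GENCODE M1 genes with at least 200 exonic bases not shared with another gene on that strand, taking the transcript strand opposite to the line strand, with the alignments on those genes as library size. Introns of the members held 0 to 2 alignments (up to 11 in Socs3) and were not used. Adding 4 to FPKM and calling past 3-fold followed the study. The members, gene lists and settings were chosen with earlier results of these data known. Genes named from the wider list were those past 3-fold and the highest in wild type of each role, with exceptions marked, and 1 further gene of the fixed list is not reported here and is in none of the list's counts, which leaves 49. Promoters were counted within 2 kb of the start. The counting was tested on simulated data. RefSeq promoter sequences (GRCm38.p6) were matched letter for letter to NCBIM37. Scripts ran in Python 3.11.15 with scipy 1.17.1 for the intervals, pandas 2.3.3, numpy 2.4.6 and matplotlib 3.10.9.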

Additional observations from a re-analysis of the deposited data

How the results depend on the processing

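No paired analysis was possible because each condition had 1 library, and no replicate could be left out. The count of members lower by 3-fold in CAST-/129-, 3, became 1 (Socs3) with all distinct alignments as library size, 1 (Socs3) with reads before collapsing, 1 (Lifr) with each 5′ position counted 1 time, 0 with 10 added to FPKM in place of 4, and 0 at a 5-fold threshold. It was 4 (with Pim3) at a 2-fold threshold and 2 (Lifr and Socs3) with median-of-ratios scaling. In CAST-/129+, 2 members were lower at a 2-fold threshold. Reads before collapsing took the median log2 ratio of genes with a mean of at least 1 FPKM in CAST-/129- from -0.08 to 0.03, and each 5′ position counted 1 time took it to -0.12.

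For the 49 other pathway genes, counts lower in CAST+/129- (2) became 1 with each 5′ position counted 1 time, 4 with 1 added to FPKM, 5 at 2-fold and 1 at 5-fold, and counts higher (0) became 2 with 1 added and 2 at 2-fold. In CAST-/129+, those lower (3) became 5 with 1 added and 6 at 2-fold, and Egr1 was lost from them with 10 added and at 5-fold. In CAST-/129-, those lower (2) became 4 at 2-fold, and those higher (2) became 1 with both strands counted, with each 5′ position counted 1 time, with 10 added and at 5-fold. With reads before collapsing, Klf5 was among those lower in CAST-/129+ and CAST-/129-. Over all genes, the numbers lower and then higher in CAST+/129-, CAST-/129+ and CAST-/129- (96, 101, 104, 149, 161 and 258) were 348, 287, 407, 427, 565 and 701 with 1 added, 24, 50, 32, 75, 50 and 120 with 10 added, 401, 285, 482, 384, 605 and 630 at 2-fold and 14, 49, 16, 56, 29 and 103 at 5-fold. With all distinct alignments as library size, 62 were lower in CAST+/129- and 106 in CAST-/129-.

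Of 144 values of members as a percent of wild type, 120 moved by less than their interval and 24 by more, and 2 members crossed 100%: Jak1 in CAST-/129-, between 92.8% and 106.5%, and Pim3 in CAST+/129-, at 107.4% with each 5′ position counted 1 time. Of 120 promoter values, 88 stayed within their interval. The cause of these shifts was not tested. Counting each 5′ position 1 time is a limited check for genes with more wild type alignments than exonic bases, among them Pim1, Pim3, Socs3, Klf4 and Tfcp2l1. Depth limits genes with few alignments in CAST-/129+ and CAST-/129-, the libraries with the fewest alignments.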
